A study of Mus musculus with 13 samples.

Results

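The serotonin receptor genes examined were Htr1a, Htr1b, Htr1d, Htr1f, Htr2a, Htr2c, Htr3a, Htr4, Htr5a and Htr7, chosen by gene symbol, 10 of the 45777 genes in the deposited table. RNA-Seq was performed on hippocampi taken at day 3, with 1 library per mouse. Sham-WT (n = 3) were Nestin-Cre::Lin28a+/+ mice given saline and sham-cKO (n = 4) were saline-treated Nestin-Cre::Lin28aloxP/loxP mice. SE-WT (n = 3) and SE-cKO (n = 3) were the same genotypes after status epilepticus (SE), a prolonged seizure, evoked with pilocarpine at 260 mg/kg in male mice and 280 mg/kg in female mice. The mice were 6 weeks old at injection. Pilocarpine was preceded by scopolamine methyl nitrate, to block its peripheral effects, and by terbutaline, to widen the airways. All mice carried the Nestin-Cre driver, so the cKO removes the RNA-binding protein LIN28A from the neural stem cells and progenitors that use the Nestin promoter and from the neurons and glia they give rise to. Cells of other origin, such as microglia, keep the gene. Lin28a itself had 3 reads in SE-WT replicate 3 and 0 reads in the other 12 libraries, so whole-hippocampus RNA gave no check of the deletion.

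Serotonin reaches the hippocampus through axons of the raphe nuclei and acts on receptors that differ in their coupling. The receptors encoded by Htr1 and Htr5 genes couple to Gi/o proteins, which lower cyclic AMP and open potassium channels. Htr2 receptors couple to Gq and phospholipase C, Htr4 and Htr7 receptors couple to Gs and raise cyclic AMP, and Htr3a encodes a cation channel gated directly by serotonin. In the hippocampus, Htr1a is known for inhibition of pyramidal and granule neurons, and Htr3a for its expression in interneurons.

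At day 3 the receptor genes did not move as a block in WT mice, with 4 positive and 6 negative log2 fold changes. In cKO mice 9 of the 10 were negative, with a median of -0.63. Htr7 was lower in SE-cKO than in sham-cKO, and it was the only one of the 10 genes that passed the test across all genes (edgeR quasi-likelihood test, adjusted p under 0.05) in either comparison of SE with sham. Of all genes tested in cKO mice, 8.92% were called lower and 13.8% higher, so 1 of 10 called lower is near the share over all genes. In WT mice these shares were 0.832% and 4.57%. Htr3a had the next most regular pattern, 2.32-fold lower after SE in WT mice and 1.94-fold lower in cKO mice, without passing the test in either genotype (adjusted p = 0.0518 and 0.114). Htr1a was lower in every SE-WT library than in every sham-WT library and overlapped between the cKO groups. Htr2a, Htr5a and Htr1f overlapped between sham and SE in both genotypes.

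Levels are given as CPM, the reads of a gene scaled to a common library size after TMM normalization. Granule cell (9) and CA pyramidal (10) markers were all at 1 CPM or more in the sham libraries. In both sham groups the same held for 5 of 5 neocortical and 8 of 9 thalamic neuron markers. This level therefore does not tell hippocampus from neighbouring tissue. Libraries held between 59659977 and 84354243 reads, and 3 reads, taken as the lower limit of a library, stand for 0.0364 to 0.0506 CPM. All 10 genes passed the filter on low counts in each comparison. Htr1d, with 0 to 12 reads in sham-WT, passed it in WT mice through its SE-WT libraries. Because whole tissue was sequenced, a lower value after SE cannot be separated into fewer cells of a type and less RNA per cell.

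**Figure D1:**
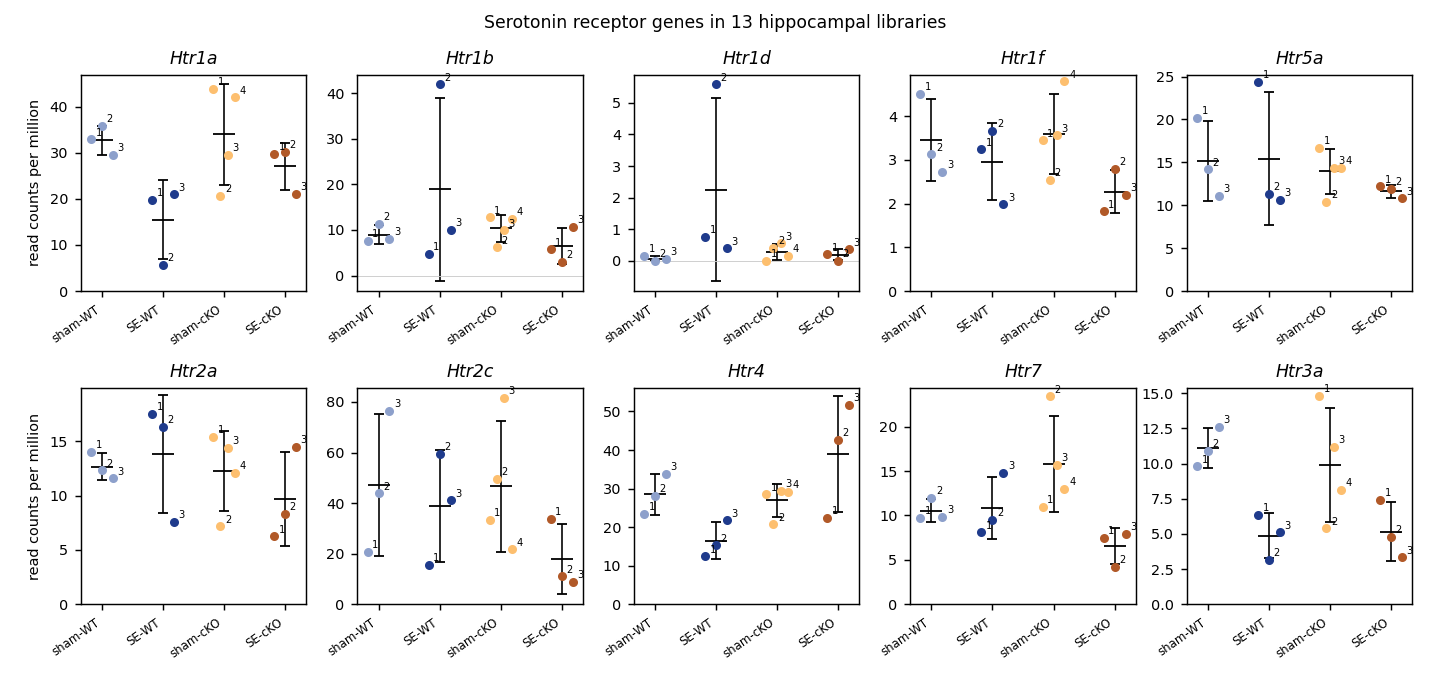
CPM (y axis, linear, 1 panel per gene) in sham-WT, SE-WT, sham-cKO and SE-cKO; each point is 1 library with its replicate number, the bar is the group mean and the whiskers are 1 SD. Htr7 in the 3 SE-cKO libraries lies below the 4 sham-cKO libraries, and Htr1b and Htr1d are highest in SE-WT replicate 2.

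Htr2c and Htr1a had the highest mean levels per transcript length in both sham groups. In sham-WT the deposited TPM (a scale that corrects for transcript length) averaged 12.5 ± 7.47 for Htr2c and 9.17 ± 1.59 for Htr1a (SD, n = 3), with overlapping ranges. Htr4 (6.74 ± 0.799 TPM), Htr3a (6.67 ± 1.18 TPM) and Htr2a (5.32 ± 0.439 TPM) followed below Htr1a without overlapping it, and each of them overlapped its neighbour. Htr7 (3.82 ± 0.815 TPM), Htr5a (3.58 ± 0.938 TPM), Htr1b (2.40 ± 0.782 TPM) and Htr1f (1.68 ± 0.342 TPM) formed a lower series, again with overlap between neighbours. Htr1d stood apart at 0.0228 ± 0.0274 TPM, without overlap. After SE, Htr2c (10.6 ± 5.54 TPM) and Htr2a (6.0 ± 1.90 TPM) had the highest means in SE-WT, and Htr4 (9.26 ± 3.79 TPM) and Htr1a in SE-cKO, with overlap between neighbours. The sham-WT order was the same in deposited FPKM.

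Summed over the 10 genes, TPM lay between 41.3 and 57.3 in sham-WT and between 45.3 and 71.6 in sham-cKO. After SE the sum was 36.4 to 48.6 in SE-WT and 35.3 to 42.5 in SE-cKO, so SE-WT overlapped its sham group and SE-cKO did not. Htr2c gave 13.3 of the 45.3 TPM in sham-cKO replicate 2 and 2.75 of the 42.5 TPM in SE-cKO replicate 3. Htr7 gave 8.63 and 3.47 TPM in the same libraries. The separation in cKO mice therefore depended on Htr2c, which varied widely within groups, and on Htr7, since it was absent without either gene. The deposited TPM were not scaled further between libraries. The share of the ion channel Htr3a in the sum over the 10 genes was 12.5% to 13.2% in sham-WT and 3.68% to 10.8% in SE-WT. In cKO mice this share overlapped, at 7.31% to 15.9% in sham and 5.54% to 11.9% after SE. The other classes overlapped between sham and SE in both genotypes. Gq-coupled members (Htr2a and Htr2c) gave 25.0% to 43.4% in sham-WT, 32.9% to 44.0% in SE-WT, 22.6% to 43.7% in sham-cKO and 17.9% to 30.9% in SE-cKO. Gs-coupled members (Htr4 and Htr7) gave 18.6% to 21.7% in sham-WT, 13.7% to 26.2% in SE-WT, 18.3% to 30.2% in sham-cKO and 20.4% to 36.0% in SE-cKO. Gi/o-coupled members, the remaining 5 genes, gave 24.9% to 40.4%, 30.7% to 40.9%, 25.9% to 43.5% and 34.8% to 38.7% in the same order of groups.

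**Figure D2:**
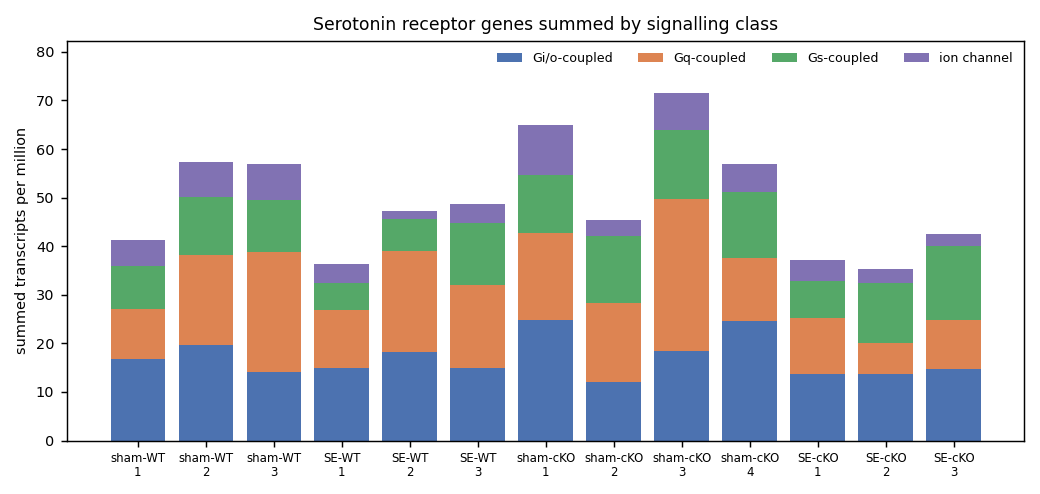
Summed TPM of the 10 receptor genes (y axis, linear) in each of the 13 libraries, stacked by signalling class. The 3 SE-cKO libraries (35.3 to 42.5) sit below the 4 sham-cKO libraries (45.3 to 71.6), and the Gq part, which holds Htr2a and Htr2c, reaches from 6.31 to 31.3. The separation in cKO mice depended on Htr2c and on Htr7.

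Within WT mice, 0 of the 10 receptor genes passed the edgeR test after SE, where 0.832% of 20803 tested genes were called lower and 4.57% were called higher. At an unadjusted p under 0.05 there were 4 of 10, beside 20.8% of all genes, and DESeq2, which called 12.9% of all genes, called 3 (Htr1d and, both lower, Htr3a and Htr4). The libraries did not overlap for Htr1a, Htr3a and Htr4, all lower after SE (11.9% of all genes were lower in this way), and for Htr1d, higher (16.8% of all genes). The median log2 fold change of the 10 genes was -0.12, beside 0.02 for all genes tested.

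Within cKO mice, 1 of the 10 genes, Htr7, was called lower and 0 were called higher, where 8.92% of 21307 tested genes were called lower and 13.8% higher. At an unadjusted p under 0.05 there were 4 of 10, beside 35.2% of all genes, and DESeq2, which called 29.4% of all genes, called 2, Htr7 and Htr3a. Htr7 was also the 1 gene whose SE libraries all lay below the sham libraries (14.4% of all genes), and 0 of the 10 genes had all SE libraries above the sham libraries (19.8% of all genes). The median log2 fold change was -0.63 over the 10 genes, with 9 of them negative, beside 0.00 over all genes tested.

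**Figure D3:**
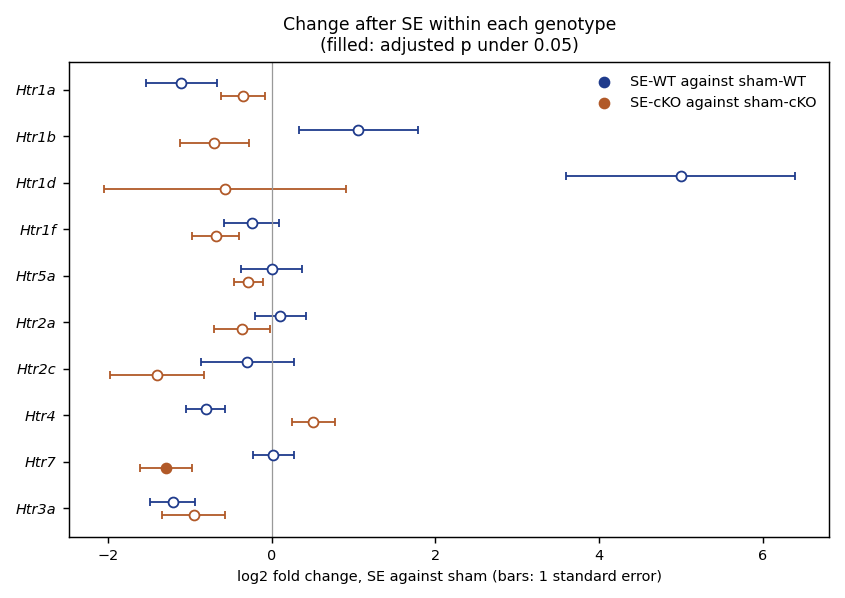
Log2 fold change after SE (x axis) for the 10 genes, SE-WT against sham-WT in blue and SE-cKO against sham-cKO in brown; bars are 1 standard error and filled circles have an adjusted p under 0.05. Htr7 in the cKO comparison is the one filled circle, at -1.29, and its WT value is 0.02.

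Htr7 (chr19:35958415-36058133, GRCm38.p6) encodes a Gs-coupled receptor known from thalamus as well as hippocampus. It was at 11, 23.4, 15.7 and 13 CPM in sham-cKO replicates 1 to 4. In SE-cKO it was at 7.52, 4.24 and 7.93 CPM. No SE-cKO library reached the lowest sham-cKO library, and replicate 2 of sham-cKO was far above the other sham libraries. The log2 fold change was -1.29 ± 0.32 (SE, adjusted p = 0.0203), a 2.45-fold lower level. In WT mice the values were 9.74, 12 and 9.85 CPM in sham-WT and 8.12, 9.54 and 14.8 CPM in SE-WT. These groups overlapped, and the log2 fold change was 0.02 ± 0.25 (adjusted p = 0.983). The difference between the genotypes in the SE effect was -1.31 ± 0.43 on the log2 scale, with an unadjusted p of 0.0104 and an adjusted p of 0.233, so the SE effect on Htr7 was not shown to differ between cKO and WT mice. It was -0.66 without the 3 libraries high in thalamic or striatal markers (adjusted p = 0.654) and -0.71 with those levels as covariates (adjusted p = 0.615).

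Sham-cKO replicate 2 and SE-WT replicate 3, which held the highest Htr7 of their groups, were also the libraries with the highest level of 9 thalamic neuron markers such as Tcf7l2 and Prkcd. All 9 markers were highest in sham-cKO replicate 2. Their level, the median log2 CPM over the 9 markers relative to the mean of the sham libraries, was -0.63 to -0.54 in sham-WT, -0.72 to 3.56 in sham-cKO, -0.66 to 2.79 in SE-WT and -0.35 to 0.28 in SE-cKO. Their summed CPM reached 1330 in sham-cKO, 780 in SE-WT and 154 in SE-cKO, and no marker was at 0 in a whole group. Without sham-cKO replicate 2 the Htr7 difference in cKO mice was -1.05 (adjusted p = 0.0278), and in a fit of all groups without the 3 libraries high in thalamic or striatal markers it was -1.05 (adjusted p = 0.0115). Without SE-cKO replicate 2, the lowest library, it was -1.05 and no longer called (adjusted p = 0.0659). In WT mice, leaving out SE-WT replicate 3 turned the Htr7 value to -0.26 (adjusted p = 0.457).

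Htr3a (chr9:48899213-48911152) encodes the subunit that every serotonin-gated channel needs, and in forebrain it is known as a marker of interneurons. It was at 9.81, 10.9 and 12.6 CPM in sham-WT and at 6.35, 3.15 and 5.13 CPM in SE-WT. All SE-WT libraries were below all sham-WT libraries, with a log2 fold change of -1.22 ± 0.28 (2.32-fold lower), just short of the threshold (adjusted p = 0.0518). It was -0.98 and called without SE-WT replicate 2 (adjusted p = 0.0483). With striatal and thalamic marker levels as covariates it was -0.47 (adjusted p = 0.643), and without the 3 libraries high in those markers -0.82 (adjusted p = 0.417). In cKO mice it was at 14.8, 5.41, 11.2 and 8.14 CPM in sham and at 7.41, 4.78 and 3.33 CPM after SE. These groups overlapped through sham-cKO replicate 2, with a log2 fold change of -0.96 ± 0.39 (adjusted p = 0.114). Without that library, the one high in thalamic markers, the change was -1.19 (adjusted p = 0.0378). The interaction of genotype and SE for Htr3a had an adjusted p of 0.892.

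Markers of the interneurons among which Htr3a is known, the Vip, Lamp5 and Cnr1 classes, had a summed level of 593 to 669 CPM in sham-WT, 385 to 605 in SE-WT, 501 to 766 in sham-cKO and 279 to 403 in SE-cKO. All 7 of these markers were at 1 CPM or more in every library. The summed level overlapped between sham and SE in WT mice and not in cKO mice. The SE libraries lay wholly below the sham libraries for 1 of the 7 in WT mice and for 2 of the 7 in cKO mice. Over all genes tested these shares were 11.9% and 14.4%. Whether these cells have a part in the lower Htr3a was not tested.

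Htr1a, the inhibitory receptor best known from hippocampal pyramidal and granule neurons, had the highest mean TPM after Htr2c in both sham groups. After SE its mean was 4.81 ± 2.99 TPM in SE-WT, below Htr2c, Htr2a and Htr1b, and 7.89 ± 0.768 TPM in SE-cKO, below Htr4 alone, in each case overlapping its neighbours. It is a gene of 1 exon on chromosome 13, and a promoter stretch upstream of its annotated start, which it does not reach, is printed, since Htr1a had the highest mean TPM of the Gi/o-coupled members in sham mice. The stretch at chr13:105443443-105443638, plus strand, comes from the RefSeq table (GRCm38.p6), with capitals for a GC box (GGGCGG).
Htr1a: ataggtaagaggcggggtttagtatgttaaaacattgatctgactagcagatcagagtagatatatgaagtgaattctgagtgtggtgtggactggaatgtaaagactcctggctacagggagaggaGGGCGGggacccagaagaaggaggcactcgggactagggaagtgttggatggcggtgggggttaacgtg
Both strands of the 250 bases ahead of each start were searched for the GC box, the TATA box (TATAAA) and the cyclic AMP response half-site (TGACG). These are found in 32.7%, 12.4% and 17.8% of 32851 such windows, and the Htr1a window held the first of them only. A match to these letters is a description of the window. Its GC content was 50.4%, against 82.0% for the window of Htr7 and a median of 52.4% over all windows.

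Htr1a was at 32.9, 35.8 and 29.5 CPM in sham-WT and at 19.8, 5.70 and 21.0 CPM in SE-WT. Every SE-WT library was lower, and SE-WT replicate 2 was far below the other 2. The log2 fold change was -1.11 ± 0.44 (adjusted p = 0.206), and without SE-WT replicate 2 it was -0.71 and was called (adjusted p = 0.0420). With striatal and thalamic marker levels as covariates it was -0.21 (adjusted p = 0.824). In cKO mice Htr1a was at 43.9, 20.6, 29.6 and 42.0 CPM in sham and at 29.8, 30.2 and 21.1 CPM after SE. The groups overlapped, and the log2 fold change was -0.36 ± 0.27 (adjusted p = 0.399). The interaction was not called either (adjusted p = 0.616).

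Markers of these neurons were measured beside it. The summed level of 10 CA pyramidal markers was 649 to 807 CPM in sham-WT, 301 to 642 in SE-WT, 508 to 794 in sham-cKO and 321 to 488 in SE-cKO. The level of 9 granule cell markers was -0.18 to 0.15 in sham-WT, -2.20 to -1.37 in SE-WT, -0.53 to 0.15 in sham-cKO and -0.83 to -0.60 in SE-cKO, on the log2 scale used for the thalamic list. Of the 10 pyramidal markers, 3 had all SE-WT libraries below all sham-WT libraries (11.9% of all genes). In cKO mice 5 were lower in this way (14.4% of all genes). SE-WT replicate 3 was the highest library for 2 markers and SE-WT replicate 1 for 1. Neurod6, 1 of the 10, was at 0.964 CPM in SE-WT replicate 2 and at 79.1 CPM in SE-WT replicate 3. The summed level of the 10 was 301 and 642 CPM in these 2 libraries. The part of these markers in the Htr1a values was not tested.

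Htr5a and Htr1f, both Gi/o-coupled, overlapped between sham and SE in either genotype. Htr5a, which encodes one of the least studied serotonin receptors, ranged from 11.1 to 20.2 CPM in sham-WT and from 10.6 to 24.4 CPM in SE-WT. The log2 fold change was 0.00 ± 0.37 (adjusted p = 0.999). Its values in cKO mice lay between 10.4 and 16.7 CPM in sham and between 10.8 and 12.2 CPM after SE (-0.29 ± 0.18, adjusted p = 0.297). Htr1f was at 2.73 to 4.51 CPM in sham-WT and 1.98 to 3.66 CPM in SE-WT (log2 fold change -0.25 ± 0.33, adjusted p = 0.735). The cKO values of Htr1f were 2.55 to 4.80 CPM in sham and 1.82 to 2.79 CPM after SE (-0.69 ± 0.29, unadjusted p = 0.0420, adjusted p = 0.125).

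Htr1b and Htr1d encode receptors on axon terminals that restrain transmitter release. Htr1d had 12, 0 and 3 reads in sham-WT and 47, 406 and 32 reads in SE-WT, which is 0.394 to 5.59 CPM after SE. All SE-WT libraries were above all sham-WT libraries, with an imprecise log2 fold change of 5.00 ± 1.40 (adjusted p = 0.0944), or 3.04 without SE-WT replicate 2 (adjusted p = 0.226). The cKO libraries had 0 to 40 reads in sham and 0 to 24 reads after SE (-0.57 ± 1.48, adjusted p = 0.832). Htr1b was at 7.57, 11.3 and 8.06 CPM in sham-WT and at 4.75, 41.9 and 10 CPM in SE-WT. Only SE-WT replicate 2 was high, and the log2 fold change of 1.06 ± 0.72 (adjusted p = 0.463) became -0.30 without it (adjusted p = 0.687). In cKO mice Htr1b was at 6.20 to 12.8 CPM in sham and 3.02 to 10.7 CPM after SE (-0.70 ± 0.42, adjusted p = 0.278). Htr1b overlaps D430036J16Rik in the annotation, a gene of at most 5.33 CPM here, and with no strand setting given for the counting their reads cannot be told apart.

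SE-WT replicate 2 was the library with the highest level of all 10 striatal neuron markers, among them Drd1 and Adora2a. Their summed level was 134 to 148 CPM in sham-WT, 150 to 167 in sham-cKO, 141 to 2070 in SE-WT and 107 to 135 in SE-cKO, with no marker at 0 in a whole group. Drd1, the dopamine receptor of striatal output neurons, was at 200 CPM in SE-WT replicate 2 and at 22.9 and 12.1 CPM in the other SE-WT libraries. Htr1b and Htr1d are known to be rich in striatum.

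**Figure D4:**
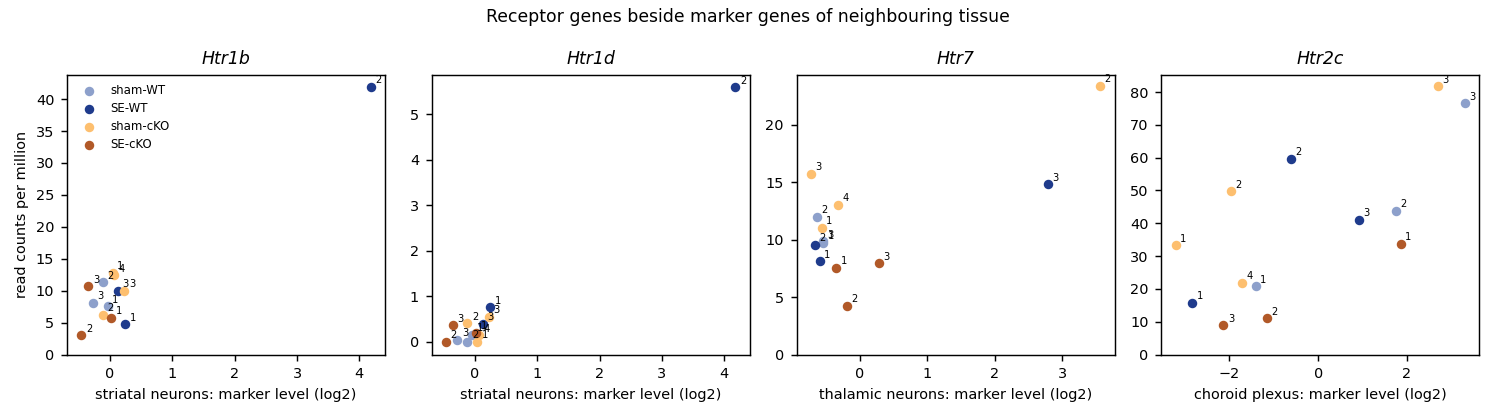
CPM of Htr1b, Htr1d, Htr7 and Htr2c (y axes, linear) against the level of striatal, thalamic or choroid plexus markers in the same library (x axes, median log2 CPM over the markers relative to the mean of the 7 sham libraries); each point is 1 library with its replicate number, coloured by group. SE-WT replicate 2 lies apart at a striatal level of 4.18, and sham-cKO replicate 2 and SE-WT replicate 3 lie apart at thalamic levels of 3.56 and 2.79.

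Htr2a, the Gq-coupled receptor of cortical pyramidal neurons through which serotonergic hallucinogens act, was at 14.0, 12.3 and 11.6 CPM in sham-WT and at 17.5, 16.3 and 7.59 CPM in SE-WT. The SE-WT libraries fell on both sides of the sham-WT libraries (log2 fold change 0.10 ± 0.31, adjusted p = 0.896). For cKO mice it was at 15.4, 7.18, 14.4 and 12.1 CPM in sham and at 6.24, 8.30 and 14.5 CPM after SE, again with overlap (-0.37 ± 0.34, adjusted p = 0.505).

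Htr2c, the receptor long known for its abundance in choroid plexus, varied widely within groups. It was at 20.8 to 76.6 CPM in sham-WT and 15.7 to 59.6 CPM in SE-WT (log2 fold change -0.30 ± 0.57, adjusted p = 0.822). The cKO groups were at 21.8 to 81.7 CPM in sham and 8.87 to 33.7 CPM after SE (-1.41 ± 0.57, adjusted p = 0.116). The highest values, 76.6 and 81.7 CPM, were in sham-WT replicate 3 and sham-cKO replicate 3, the libraries with the highest levels of 10 choroid plexus markers such as Ttr. The next highest, 59.6 CPM in SE-WT replicate 2 and 49.7 CPM in sham-cKO replicate 2, had choroid plexus levels of -0.62 and -1.96 on the log2 scale. The summed marker level was 355 to 7200 CPM in sham-WT, 207 to 4400 in sham-cKO, 231 to 1170 in SE-WT and 164 to 1880 in SE-cKO. A fit with the marker level as a covariate was chosen after seeing the data. In that fit the change was -1.73 in cKO mice and was called (adjusted p = 0.00567), and it was 0.52 in WT mice (adjusted p = 0.523). With no covariate and without SE-cKO replicate 1, the change was -2.23 in cKO mice (adjusted p = 0.0264). With striatal and thalamic marker levels as covariates it was -1.21 in cKO mice (adjusted p = 0.199) and -1.24 in WT mice (adjusted p = 0.580).

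Htr4, a Gs-coupled receptor of granule and pyramidal neurons, was at 23.5, 28.1 and 33.9 CPM in sham-WT and at 12.5, 15.3 and 21.8 CPM in SE-WT. The libraries did not overlap, and the log2 fold change was -0.81 ± 0.24 (adjusted p = 0.106), or -1.04 and called without SE-WT replicate 3 (adjusted p = 0.0393). With striatal and thalamic marker levels as covariates it was -0.69 (adjusted p = 0.484), and with Xist as a covariate -0.61 (adjusted p = 0.229). Htr4 in cKO mice was at 28.5, 20.7, 29.4 and 29.1 CPM in sham and at 22.4, 42.7 and 51.8 CPM after SE. SE-cKO replicate 1 lay within the sham range, and the log2 fold change was 0.51 ± 0.26 (adjusted p = 0.216), or 0.81 and called without that library (adjusted p = 0.0177). Without SE-cKO replicate 3 it was 0.27 (adjusted p = 0.537). The interaction was 1.32 ± 0.39 on the log2 scale with an unadjusted p of 0.00516. It was not called by edgeR (adjusted p = 0.192) and was called by DESeq2 (adjusted p = 0.0385). With striatal and thalamic marker levels as covariates the interaction was 1.20 (adjusted p = 0.525).

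Between genotypes 0 of the 10 receptor genes were called by edgeR, beside 0% of 21126 genes after SE and 0% of 20785 genes in sham mice. After SE, 2 of 10 had an unadjusted p under 0.05 (9.68% of all genes) and DESeq2 called 0 (2.53% of all genes). These were Htr4, higher in SE-cKO by 1.20 ± 0.35 on the log2 scale (adjusted p = 0.359), and Htr1d (-3.62 ± 1.39, adjusted p = 0.458), which was -1.64 without SE-WT replicate 2 (adjusted p = 0.872). In sham mice, 1 of 10 had an unadjusted p under 0.05 (5.54% of all genes) and DESeq2 called 0 (0.0818% of all genes). That gene was Htr7, at 0.60 ± 0.25 on the log2 scale in sham-cKO (adjusted p = 0.868), which was 0.34 without sham-cKO replicate 2 (adjusted p = 0.768). The interaction was called for 0 of the 10 genes by edgeR, beside 0.159% of 22596 genes, and for 1 by DESeq2, beside 3.19%, and 3 of 10 had an unadjusted p under 0.05 (12.5% of all genes), namely Htr4, Htr7 and Htr1d (-5.57 ± 2.17, adjusted p = 0.314).

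The table held 4 more serotonin receptor genes, and the Gq-coupled Htr2b, known outside brain for its role in heart valves, gut and blood vessels, was the one that rose after SE in both genotypes. Htr2b (chr1:86097546-86116231) had 0 reads in all 3 sham-WT libraries and was at 2.13, 1.31 and 0.875 CPM in SE-WT, a mean at least 28.4-fold higher than the highest 3-read limit of a sham-WT library (adjusted p = 0.00827). The cKO mice had 8 reads in sham-cKO replicate 1, 0 reads in the other 3 sham libraries and 375, 342 and 272 reads after SE. The log2 fold change there was 7.25 ± 0.94 (adjusted p = 0.000969), and 11.3 without sham-cKO replicate 1, which held the 8 reads. Htr2b passed the filter on low counts only through its SE libraries, and the sham side held almost no reads. The p-values of SE against sham therefore add little to the read counts themselves. At 4.07 to 4.78 CPM every SE-cKO library was above every SE-WT library (0.875 to 2.13 CPM). That last difference was 1.61 ± 0.38 on the log2 scale and was not called by edgeR (adjusted p = 0.320), while DESeq2 called it (adjusted p = 0.00712). Htr2b lies within Psmd1, which was at 142 to 170 CPM in all libraries, and in 6 of the 7 sham libraries Htr2b had 0 reads beside Psmd1 at that level. Markers of microglia rose beside it, with all 10 above sham in every SE library of both genotypes, from 381 to 431 CPM summed in sham libraries to between 1420 and 2620 after SE, and the part of these cells in Htr2b was not tested.

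Htr5b, a receptor gene that is intact in mice and not in humans, was at 6.75, 5.61 and 5.87 CPM in sham-WT and at 1.74, 0.165 and 4.66 CPM in SE-WT. All SE-WT libraries were lower, with a wide spread (log2 fold change -1.50 ± 0.89, adjusted p = 0.396). It was -0.95 without SE-WT replicate 2 (adjusted p = 0.245) and -2.69 without SE-WT replicate 3 (adjusted p = 0.135). The cKO values of Htr5b were 4.29, 7.54, 6.41 and 5.51 CPM in sham and 2.85, 2.78 and 0.538 CPM after SE. The groups did not overlap, and the change of -1.55 ± 0.52 was not called by edgeR (adjusted p = 0.0657), while DESeq2 called it (adjusted p = 0.00894). Without SE-cKO replicate 3 it was -1.08 and called by edgeR (adjusted p = 0.0307). Htr6, a Gs-coupled receptor rich in striatum, was at 1.31 to 1.58 CPM in sham-WT and 1.59 to 3.46 CPM in SE-WT, just apart from sham and highest in SE-WT replicate 2 (0.69 ± 0.37, adjusted p = 0.335), and 0.31 without that library (adjusted p = 0.658). In cKO mice the Htr6 difference was 0.03 ± 0.54 (adjusted p = 0.981). Htr3b, the second subunit of the serotonin-gated channel, had 8 and 10 reads in SE-WT replicates 1 and 2 and 0 reads in the other 11 libraries, and did not pass the filter.

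Serotonin synthesis, transport and breakdown genes did not pass the test in either genotype. Of 14 such genes, 13 were tested in WT mice and 14 in cKO mice, and 0 were called higher or lower by edgeR. At an unadjusted p under 0.05 there were 1 of 13 in WT and 4 of 14 in cKO mice, beside 20.8% and 35.2% of all genes, and DESeq2 called 0 and 1, beside 12.9% and 29.4% of all genes. Their median log2 fold change was -0.03 in WT mice (0.02 over all genes) and -0.12 in cKO mice (0.00 over all genes). Tph2, the rate-limiting enzyme of neuronal serotonin synthesis, was at 0.716 to 6.90 CPM over the 13 libraries, and Fev, which defines raphe serotonin neurons, had 0 reads in all of them. Of 12 kynurenine pathway genes, which break tryptophan down along the other route, 10 were tested in each genotype. In each genotype edgeR called 1 lower and 0 higher. Over all genes tested, 0.832% were called lower and 4.57% higher in WT mice, and 8.92% lower and 13.8% higher in cKO mice. The tryptophan dioxygenase Tdo2 was called lower in both, falling from 7.35 ± 1.22 to 0.345 ± 0.194 CPM in WT mice (log2 fold change -4.42 ± 0.49, adjusted p = 0.00405) and from 6.91 ± 1.73 to 1.08 ± 0.715 CPM in cKO mice (-2.70 ± 0.48, adjusted p = 0.00487). The median of that list was 0.38 in WT and 0.67 in cKO mice, opposite in sign to Tdo2. Tdo2 is also 1 of the 9 granule cell markers, whose level was between -2.20 and -1.37 in SE-WT and between -0.83 and -0.60 in SE-cKO, and the part of these cells in it was not tested.

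Genes that relay the receptors' signals moved in both directions. Of 25 G proteins, effectors and channels, 2 were called higher and 0 lower in WT mice, and 5 were called higher and 8 lower in cKO mice, with medians of -0.13 and -0.44 (0.02 and 0.00 over all genes). Over all genes tested, 4.57% were called higher and 0.832% lower in WT mice, and 13.8% higher and 8.92% lower in cKO mice. Adcy7, an adenylyl cyclase known from immune cells, rose from 5.53 ± 0.572 to 22.1 ± 3.88 CPM in WT mice (log2 fold change 1.97 ± 0.19, adjusted p = 0.00271) and from 6.31 ± 2.09 to 30.3 ± 10.4 CPM in cKO mice (2.24 ± 0.31, adjusted p = 0.00134). The 10 microglia markers summed to 381 to 431 CPM in sham libraries, 1420 to 1900 in SE-WT and 1650 to 2620 in SE-cKO, and the part of these cells in the rise of Adcy7 was not tested. Adcy9, another adenylyl cyclase, fell in cKO mice by 1.09 on the log2 scale (SE 0.14, adjusted p = 0.000807), and in WT mice its change was -0.80 ± 0.19 (adjusted p = 0.0584). Plcb3, a phospholipase C that Gq activates, rose in cKO mice by 1.19 ± 0.16 (adjusted p = 0.00119), against 0.60 ± 0.17 in WT mice (adjusted p = 0.0943). Gnai2, an inhibitory G protein subunit, rose in cKO mice by 1.16 ± 0.17 (adjusted p = 0.00182), against 0.81 ± 0.27 in WT mice (adjusted p = 0.145). Whether any of these changes differed between the genotypes was tested as an interaction. EdgeR called 0 of the 25, with 6 at an unadjusted p under 0.05 (12.5% of all genes), and DESeq2 called 2 (3.19% of all genes).

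Partners and regulators of the receptors number 12 here, of which 2 were called higher and 0 lower in WT mice, and 3 higher and 2 lower in cKO mice, with medians of 0.06 and -0.19 (0.02 and 0.00 over all genes). The shares over all genes are those given for the G proteins, 4.57% higher and 0.832% lower in WT mice and 13.8% higher and 8.92% lower in cKO mice. S100a10 (p11), which binds Htr1b and Htr4 receptors and brings them to the cell surface, rose from 15.9 ± 1.17 to 53.7 ± 10.4 CPM in WT mice (log2 fold change 1.73 ± 0.17, adjusted p = 0.00281). In cKO mice it rose from 13.7 ± 3.50 to 94.3 ± 14.2 CPM (2.75 ± 0.21, adjusted p = 8.18e-05). S100a10 is also made by reactive astrocytes, whose 10 markers summed to 356 to 434 CPM in sham libraries, 3910 to 4330 in SE-WT and 7400 to 8300 in SE-cKO, and their part in it was not tested. Rgs2, which shortens Gq signals, rose in WT mice by 1.33 ± 0.29 (adjusted p = 0.0454), against 0.66 ± 0.21 in cKO mice (adjusted p = 0.0562). Rgs4, which shortens Gi/o signals, rose in cKO mice by 1.70 ± 0.42 (adjusted p = 0.0212), against 0.81 ± 0.27 in WT mice (adjusted p = 0.145). Ric3, a chaperone of Htr3a channels, fell in cKO mice by 0.47 on the log2 scale (SE 0.10, adjusted p = 0.0106), and its WT value was -0.15 ± 0.13 (adjusted p = 0.587). The interaction was called for 0 of these 12 genes by edgeR, with 3 at an unadjusted p under 0.05 (12.5% of all genes), and for 1 by DESeq2 (3.19% of all genes).

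**Figure D5:**
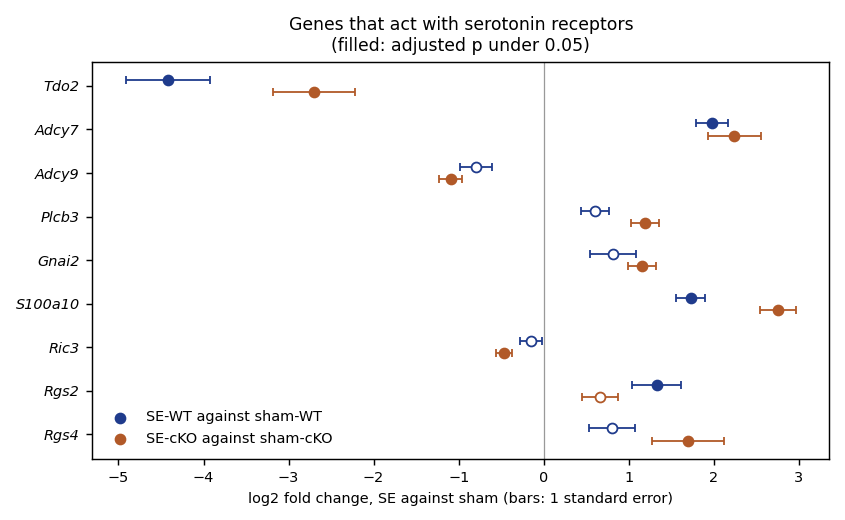
Log2 fold change after SE (x axis) of the genes named from the lists of tryptophan breakdown, signal relay and receptor partners, SE-WT against sham-WT in blue and SE-cKO against sham-cKO in brown; bars are 1 standard error and filled circles have an adjusted p under 0.05. Tdo2 lies at -4.42 and -2.70, and S100a10 at 1.73 and 2.75.

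Over the 13 libraries, the genes whose log2 CPM ran most like each receptor gene were found among 13818 genes with a mean of at least 1 CPM. The points share libraries and groups, so the coefficients are a description. Htr7 ran closest to Gabbr1 (Pearson r = 0.947), Rab3c (0.938) and Nell1 (0.927), and Htr3a to Rasal1 (0.962), Cadps2 (0.961) and Pde5a (0.960). For Htr1a they were Cemip (0.957), Zfpm2 (0.944) and Itga8 (0.940). Htr5a was paired with Ipcef1 (0.964), Mef2c (0.916) and Garnl3 (0.910), Htr1f with Zfp292 (0.930), Vezt (0.921) and Tmem161b (0.920), and Htr2a with Dlg2 (0.913), Atp8a1 (0.908) and Trank1 (0.90). Htr4 ran closest to Tnfrsf25 (0.958), Bves (0.940) and Stac (0.913), and Htr2c to Ascc1 (0.904), Wdr6 (0.90) and Ngb (0.893). For Htr1b they were the GABA synthesis genes Gad2 (0.929) and Gad1 (0.914) and then Ppp1r2 (0.909), and for Htr1d Ptpn5 (0.856), Sorcs1 (0.850) and Slc9a5 (0.842). SE-WT replicate 2 was the highest library for both receptors. Spearman's rho for the leading partner was 0.978 for Htr7, 0.984 for Htr3a, 0.956 for Htr5a, 0.940 for Htr1f and 0.934 for Htr4. It was lower for Htr2c (0.890), Htr1a (0.868), Htr1b (0.835), Htr1d (0.807) and Htr2a (0.703).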

How the data were processed

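Total RNA libraries (TruSeq stranded kit) were made from hippocampi of 13 mice. Per the labels, reads were handled with bcl2fastq 2.20.0 and Trimmomatic, aligned to mm10 with HISAT2 2.1.0 and summarised with StringTie 2.1.3b; the strand setting of the counting is not given in the sources used here. The authors deposited read counts, FPKM and TPM per gene. Counts were used for every test, TPM for comparing genes within a library and for the summed levels, and FPKM as a check of the order of the genes.

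Counts were tested with edgeR 4.0.16 (TMM, filterByExpr with a minimum count of 10 and total of 15, robust quasi-likelihood F test) in R 4.3.3, on the 2 groups compared or on all 13 libraries for the interaction, with Benjamini-Hochberg adjustment over all genes tested and a threshold of 0.05. The procedure was tested on simulated data. Standard errors are the log2 fold change divided by the root of F. Log2 CPM used a prior count of 2. P-values measure the spread between mice of a group. Replicates differed by more than sampling noise (chi-square of 51.3 or more per degree of freedom), so each counts as 1 sample. DESeq2 1.42.0 and the alternatives below were run beside it. Members and gene lists were chosen with earlier results of these data known. Named from each list were up to 4 genes with the smallest p among those called in either SE comparison, and for each receptor the 3 genes most alike over the libraries. Sex is not labelled; Xist exceeded 100 CPM in 2 of 3 sham-WT, 1 of 4 sham-cKO, 1 of 3 SE-WT and 2 of 3 SE-cKO libraries. Replicate 3 of SE-WT and of SE-cKO are titled in a different style from the other libraries. Positions and promoter sequence are from RefSeq on GRCm38.p6, the assembly behind mm10.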

Additional observations from a re-analysis of the deposited data

Results flagged for a closer look

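Htr4 in sham-cKO replicate 2, at 20.7 CPM, stood apart from the other 3 sham-cKO libraries, which lay between 28.5 and 29.4 CPM. Its gap to the nearest library was 0.895 of the range of the group, above Dixon's 95% critical value for 4 samples. It was the one such value among 12 receptor genes examined in this group. Chance alone gives about 1 in 20 for each gene, and the 12 genes come from the same libraries, so they are not independent. Sham-cKO replicate 2 was also the library set farthest apart for Htr1a, Htr1b, Htr5a, Htr2a, Htr7 and Htr6, below the critical value. For the remaining genes it was another library. Sham-cKO replicate 2 is the library highest in thalamic neuron markers. The cause was not tested.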

How the results depend on the processing

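Htr7 stayed lower in SE-cKO than in sham-cKO under all 17 alternatives (log2 fold change -1.44 to -1.05) and was called in 15 of them. It was not called with the replicate number as a block (-1.35, adjusted p = 0.0946) or without SE-cKO replicate 2 (-1.05, adjusted p = 0.0659). Of 160 alternative values of the 10 receptor genes in WT mice, 0 lost a call, 8 gained one and 27 turned in direction, and of 170 in cKO mice 2 lost a call, 7 gained one and 2 turned. The cause of the changes below was not tested. Depth limits Htr1d and Htr3b, which had 0 reads in some libraries.

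Receptor genes called numbered 0 in the WT comparison, 3 with DESeq2, 1 with the replicate block (Htr4, -0.83, adjusted p = 0.0453), 1 without the libraries of the other title style, and 0 to 2 without single libraries (2 when SE-WT replicate 2 was left out and 1 when replicate 3 was). In the cKO comparison 1 became 2 with DESeq2, 0 with the replicate block, 2 without libraries high in striatal or thalamic genes, 2 with those levels as covariates, 2 with the choroid plexus level as a covariate (chosen after seeing the data), and 0 to 3 without single libraries (0 without SE-cKO replicate 2, 2 without sham-cKO replicate 2 and 3 without SE-cKO replicate 1). For the interaction DESeq2 called 1.

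Of all genes, SE-WT against sham-WT gave 1124 calls, 2692 with DESeq2, 1773 with all 4 groups in 1 fit, 728 with the replicate block, 1849 with Xist as a covariate and 287 to 1279 without single libraries (518, 287 and 435 without sham-WT replicates 1, 2 and 3, and 727 without SE-WT replicate 1). SE-cKO against sham-cKO gave 4838, and 2458 with the replicate block. SE-cKO against SE-WT gave 0, 535 with DESeq2, 162 with all groups, 168 with Xist, 65 without libraries high in striatal or thalamic genes, 21 with those levels as covariates, 103 with the choroid plexus level and 0 to 3 without single libraries (3 without SE-WT replicate 1). Sham-cKO against sham-WT gave 0, and 17 with DESeq2. The interaction gave 36, 720 with DESeq2, 20 with no low-count filter, 234 without the other title style, 0 with the block, Xist, striatal and thalamic, or choroid plexus alternatives, and 0 to 177 without single libraries (56 and 59 without SE-WT replicates 1 and 3, 177 without SE-cKO replicate 3, 25 without SE-cKO replicate 1 and at most 5 without any other).

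Direction turned in the WT comparison for Htr1b (-0.93 without libraries high in striatal or thalamic genes, -0.52 with those levels as covariates, -0.30 to 1.52 without single libraries), Htr1f (-0.43 to 0.0105 without single libraries), Htr2a (-0.071 with the choroid plexus level, -0.10 to 0.41 without single libraries) and Htr2c (0.52 with the choroid plexus level, -0.75 to 0.23 without single libraries). For Htr5a it was 0.0033 with DESeq2, 0.0028 with RLE size factors, 0.025 with all groups, 0.23 without the other title style, 0.67 and 0.52 in the striatal and thalamic alternatives and -0.49 to 0.28 without single libraries. For Htr7 it was -0.026 with the replicate block, -0.059 with Xist, -0.26 without the other title style, -0.39 and -0.36 in the striatal and thalamic alternatives and -0.26 to 0.19 without single libraries. In the cKO comparison it turned for Htr1d (-1.41 to 0.0099 without single libraries) and Htr6 (-0.025 with Xist, -0.033 without the other title style, -0.31 without libraries high in striatal or thalamic genes, -0.31 to 0.31 without single libraries).

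Replicate numbers were not taken to pair the mice: the correlation of same-numbered libraries' deviations from their group means was 0.005 to 0.167 in the WT comparison and -0.074 to 0.036 in the cKO comparison.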
